A study of Saccharomyces cerevisiae with 21 samples.

Results

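The biofilm transcriptome of the rim101-531 mutant of Saccharomyces cerevisiae was set against that of its wild type. The rim101-531 group consisted of the 3 libraries titled with that allele and the reference group of the 3 libraries titled WT, out of 21 libraries in 7 groups, and every feature of the count tables was considered. All strains had the Sigma1278B background, which can form filaments and invade agar. The labels call the rim101-531 biofilm hypofilamentous, and give the wild type no mutation. The other groups were dig1, which the labels call hyperfilamentous, and ste12, spt8, ras2 and rtg3, which they call hypofilamentous; these 5 mutants served as a second reference. Every culture was grown for 16 h at 30 °C in rich glucose liquid medium, concentrated to an OD600 of 20, spotted in 10 µl on rich galactose medium with 2% agar and harvested after 24 h. The labels leave unsaid what the rim101-531 allele changes, whether the strain is 1 clone and whether replicates are separate cultures. The p-values therefore reflect only how far these libraries scatter, and that scatter may be technical.

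Rim101 is a zinc-finger transcriptional repressor that acts in the alkaline pH response and is needed for haploid invasive growth and sporulation. It is made as a longer form. Membrane proteins that include Rim21, Dfg16 and Rim9 sense pH, the arrestin-related Rim8 joins them to the ESCRT machinery of endosomes, and the protease Rim13 with its scaffold Rim20 then removes the carboxyl-terminal end of Rim101. The processed form represses genes that include NRG1 and SMP1, which encode transcription regulators, and through Nrg1 it allows expression of alkaline-response genes such as the sodium pump gene ENA1. In published work the same allele name in capitals stands for a shortened Rim101 that is active without cleavage. The labels write it in lower case, and no source used here says whether it is that allele.

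Counts on features came to 3202099, 3198019 and 2981795 in the wild-type libraries and to 2551873, 3211933 and 2987643 in the rim101-531 libraries. Levels are given as CPM, the counts-per-million unit, after TMM scaling and in the order of replicates 1, 2 and 3. A log2 fold change is given as the estimate ± its standard error, and a gene was called changed at an adjusted p under 0.05 in edgeR's quasi-likelihood test with Benjamini-Hochberg adjustment. RNA came from whole biofilms, so fewer cells of a type and less RNA per cell cannot be told apart. The transcript of RTG3 stood at 46.6, 45.2 and 38.9 CPM in rim101-531 and at 0 in each rtg3 library, although the deposited tables of those groups carry the same strain number.

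Between rim101-531 and wild-type biofilms a small share of the tested features passed the test. Of 5786 tested features 178 changed (3.08%), 74 of them higher (1.28%) and 104 lower (1.8%). These shares of higher and lower features are the background for the list counts against the wild type given below. An unadjusted p under 0.05 in the same test was found for 997 features. The number called therefore does not measure how much of the transcriptome differed. Changes of at least 2-fold were seen in 41 features (0.709%), 23 higher and 18 lower. The 2 largest rises were those of the phosphate transporter gene PHO89 and the cell wall mannoprotein gene TIR2, and the largest falls were in the iron reductase genes FRE2 and FRE3 and in the uncharacterised gene YDL218W. Of the 178 calls, 177 had no overlap between the groups' libraries, against 23.8% of all tested features. The calls were picked by the difference between these same libraries, so the lack of overlap is not separate support. Without wild-type replicate 2 the number called was 89, without wild-type replicate 3 it was 94, and without rim101-531 replicate 2 or 3 it was 76 or 83. With the 6 libraries alone in the fit it was 61, and 37 features (23 higher, 14 lower) were called under all 11 alternatives fixed for this comparison.

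**Figure D1:**
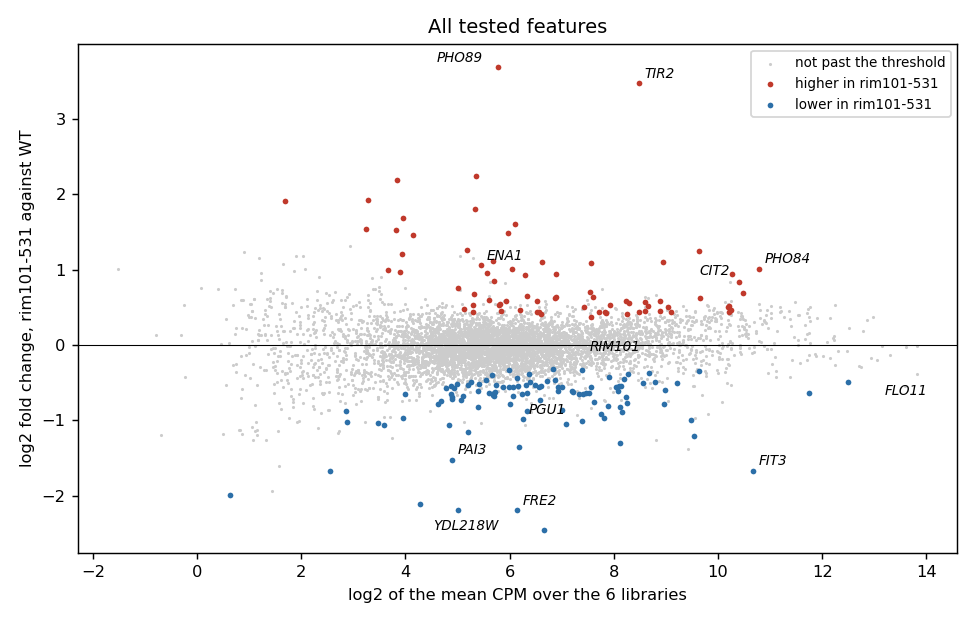
Log2 fold change of rim101-531 against the wild type (vertical axis) plotted against the log2 of the mean CPM over the 6 libraries (horizontal axis), 1 point per tested feature, coloured where the adjusted p was under 0.05. PHO89 and TIR2 stand above a log2 fold change of 3, while RIM101 and FLO11 lie among the features that did not pass.

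RIM101 itself did not pass the test. Its transcript (chrVIII:51111-52988) stood at 171, 192 and 184 CPM in the wild type and at 152, 185 and 154 CPM in rim101-531. The groups overlapped, with rim101-531 replicate 2 inside the wild-type range (log2 fold change -0.16 ± 0.11, adjusted p = 0.527). A count over the whole gene does not check an allele that changes the protein, so the label is not tested by this value. Of the 18 genes of the Rim101 pathway and its ESCRT partners, all tested, 0 were higher and 2 were lower, RIM8 and VPS28.

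RIM8, which encodes the arrestin-related adaptor of the pathway, fell. It stood at 119, 127 and 114 CPM in the wild type and at 81.4, 61.4 and 73.9 CPM in rim101-531. All 3 rim101-531 libraries lay below all 3 wild-type libraries, a log2 fold change of -0.74 ± 0.15 (adjusted p = 0.00800), which did not pass without rim101-531 replicate 2. RIM8 varied widely over the other mutants, from a mean of 38.2 CPM in ste12 to 222 CPM in rtg3, so that the rim101-531 level was within their range. The ESCRT-I subunit gene VPS28 stood at 22.6, 16.9 and 18.8 CPM against 14.6, 11.8 and 11.1 CPM (log2 fold change -0.65 ± 0.16, adjusted p = 0.0279), and its call was lost in 6 of the 11 alternatives, among them without wild-type replicate 1 or 3 and without rim101-531 replicate 2 or 3.

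The sensor and protease genes did not pass. RIM21 stood at 99.1, 92.0 and 90.7 CPM in the wild type and at 79.0, 84.4 and 85.3 CPM in rim101-531 (adjusted p = 0.313). DFG16 had a log2 fold change of -0.03 ± 0.14, RIM9 of -0.14 ± 0.22, RIM13 of 0.22 ± 0.14 and RIM20 of 0.01 ± 0.15. Over all 18 genes the values ran from -0.74 to 0.43 with a median of -0.11, against a median of -0.01 over all tested features. The list's median was -0.0028 without wild-type replicate 1, and -0.06 without wild-type replicate 2 or rim101-531 replicate 3.

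Of 7 genes listed as repressed by Rim101, 6 could be tested and 1 was called, SMP1, which rose. SMP1, which encodes a MADS-box transcription factor, stood at 6.13, 9.75 and 9.42 CPM in the wild type and at 19.9, 14.9 and 16.1 CPM in rim101-531. Every rim101-531 library was above every wild-type library (log2 fold change 1.00 ± 0.19, adjusted p = 0.00661), but the call did not hold with the 6 libraries alone in the fit. NRG1, the repressor gene through which Rim101 acts on several targets, stood at 33.9, 25.4 and 34.2 CPM and at 29.2, 30.4 and 30.7 CPM, which overlapped (log2 fold change -0.05, adjusted p = 0.935). The remaining members gave a log2 fold change of 0.65 ± 0.21 for the mannosyltransferase gene MNN14 (adjusted p = 0.105), of 0.27 ± 0.10 for YNL208W (adjusted p = 0.172), of -0.02 for YOR389W and of -0.01 for PRB1, the vacuolar proteinase B gene. YPL277C had 0 to 1 counts per library and was not tested. In the rtg3 mutant SMP1 had a mean of 95.1 CPM and NRG1 of 126.6 CPM, and both were far above every rim101-531 library.

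Genes that need Rim101 for their alkaline response went up in 3 of 6 tested cases and down in 0. Over all tested features 1.28% were higher and 1.8% lower. The list's median log2 fold change was 0.59, and 0.28 without rim101-531 replicate 2. The summed CPM of the 6 genes was 469.8, 758 and 567 in the wild type and 429.8, 726 and 616 in rim101-531, which overlapped. ENA1 (chrIV:535192-538467), the plasma membrane sodium pump gene, stood at 30.7, 29.9 and 24.4 CPM in the wild type and at 56.3, 59.1 and 61.4 CPM in rim101-531. The 3 mutant libraries were close together and all above the wild type, a log2 fold change of 1.05 ± 0.15 (adjusted p = 0.000516). YAR068W, which encodes a membrane protein of unknown role, went from 25.8, 12.03 and 16.1 CPM to 44.97, 77.3 and 66.4 CPM (log2 fold change 1.81 ± 0.31, adjusted p = 0.00229). ENA5, another sodium pump gene of the same cluster, gave 0.60 ± 0.15 (adjusted p = 0.0280) and lost its call without wild-type replicate 2 or 3 or rim101-531 replicate 2 or 3. Records that did not align uniquely were set apart from the genes in the count tables, so reads shared by copies were left out. The split between ENA1 and ENA5 rests on the remaining reads and is uncertain. ENA2 had 0 to 3 counts and was not tested.

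Other genes of that list did not move together. ZPS1, a zinc-regulated surface protein gene, stood at 82.3, 84.2 and 79.9 CPM in the wild type and at 40.1, 195 and 131 CPM in rim101-531. The mutant libraries lay on both sides of the wild type, and the difference did not pass (adjusted p = 0.515). The siderophore transporter gene ENB1 had a log2 fold change of -0.83 ± 0.27 (adjusted p = 0.105) and the kinase gene SKS1 of -0.32 ± 0.19 (adjusted p = 0.421).

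**Figure D2:**
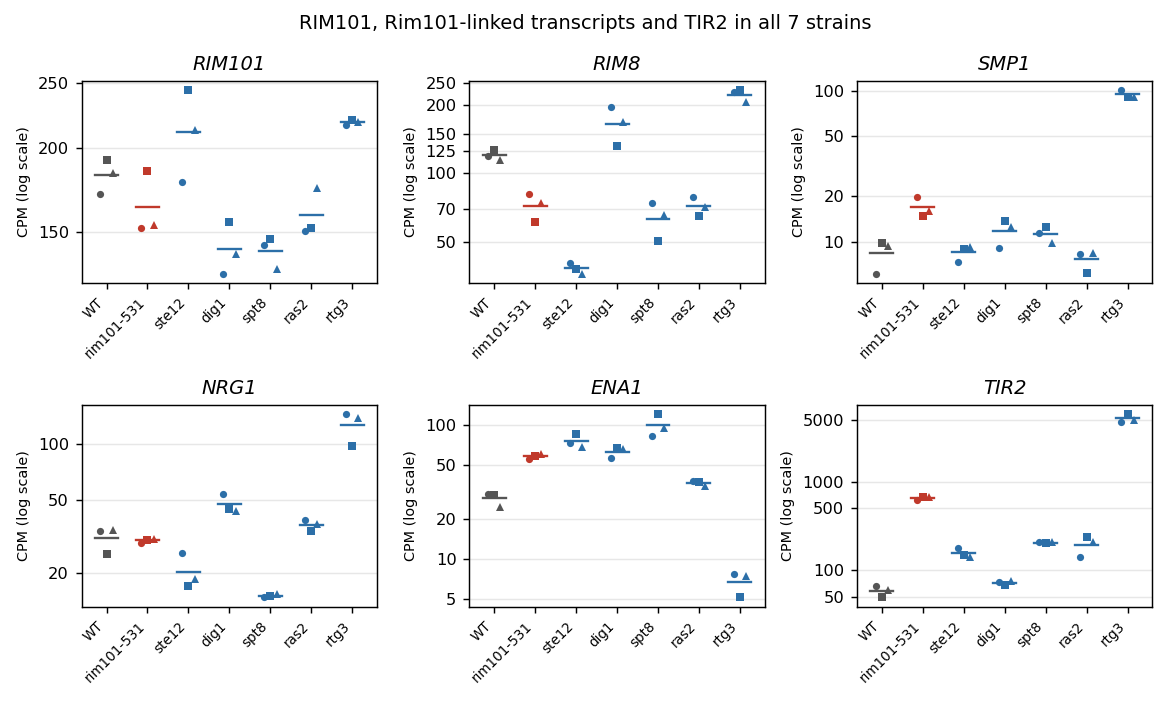
CPM on a log scale for RIM101, RIM8, SMP1, NRG1, ENA1 and TIR2 in the 7 strains, each marker being 1 library (circle, square and triangle for replicates 1, 2 and 3) and each bar the mean of 3. ENA1 and TIR2 in rim101-531 (red) lie above the wild type (grey) without overlap, RIM101 and NRG1 overlap it, and rtg3 has the highest SMP1, NRG1 and TIR2.

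Promoters of the genes that rose were searched for the Rim101 site TGCCAAG and the Pho4 site CACGTG on both strands in the 300 bases before the annotated start, in build R64. The Rim101 site was present in 192 of 6001 promoters (3.2%), in 9 of the 72 promoters of called genes that were higher (12.5%) and in 2 of the 101 of those that were lower (1.98%). The 9 were those of SMP1, DAN1, PAU17, PHO5, PHO11, PHO12, PLB2, RAD52 and SAC1. PHO11 and PHO12 have the same 300 bases there, yet each was counted in the shares given here and below. None of the 6 tested alkaline response genes had the site, nor did any of the 18 Rim101 pathway genes. Of the other letters searched, the Pho4 site was in 6 of 72 promoters of higher genes (8.33%) and in 7 of 101 of lower genes (6.93%), against 3.57% of all. The sterol element TCGTATA was in 8.33% of the higher and 2.97% of the lower, against 4.62% of all. The Aft1 site TGCACCC was in 0 of 72 of the higher and 1.98% of the lower, against 1.33% of all, and the Nrg1 site CCCTC in 18.1% and 30.7%, against 22.7%. No test was made of these shares, and a match in these letters does not show that a factor binds. Promoters of genes that rose, 4 with the site and TIR2 without it, are printed here from 300 to 101 bases before the start, 5′ to 3′ on the gene's strand, without the stretch next to the coding region. Capitals mark matches to either site (TGCCAAG reads CTTGGCA on the other strand). They come from chrII:594965-595164 (minus strand) for SMP1, chrX:709808-710007 (minus) for DAN1, chrII:431052-431251 (minus) for PHO5, chrI:225160-225359 (plus) for PHO11 and chrXV:347051-347250 (minus) for TIR2.
SMP1: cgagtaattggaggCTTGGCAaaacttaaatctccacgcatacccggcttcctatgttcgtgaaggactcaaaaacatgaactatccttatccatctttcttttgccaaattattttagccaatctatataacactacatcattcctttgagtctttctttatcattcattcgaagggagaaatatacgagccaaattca
DAN1: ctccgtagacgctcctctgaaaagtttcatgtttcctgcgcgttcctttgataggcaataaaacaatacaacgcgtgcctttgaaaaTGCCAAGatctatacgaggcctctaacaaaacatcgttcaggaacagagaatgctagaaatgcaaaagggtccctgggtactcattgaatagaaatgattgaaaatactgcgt
PHO5: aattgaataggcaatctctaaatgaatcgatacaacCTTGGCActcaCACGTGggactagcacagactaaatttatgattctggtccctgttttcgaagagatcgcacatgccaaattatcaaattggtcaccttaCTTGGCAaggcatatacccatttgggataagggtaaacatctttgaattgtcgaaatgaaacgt
PHO11: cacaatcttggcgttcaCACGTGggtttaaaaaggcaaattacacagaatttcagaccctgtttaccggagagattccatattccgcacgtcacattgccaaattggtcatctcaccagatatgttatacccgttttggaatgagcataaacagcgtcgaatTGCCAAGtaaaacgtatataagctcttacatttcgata
TIR2: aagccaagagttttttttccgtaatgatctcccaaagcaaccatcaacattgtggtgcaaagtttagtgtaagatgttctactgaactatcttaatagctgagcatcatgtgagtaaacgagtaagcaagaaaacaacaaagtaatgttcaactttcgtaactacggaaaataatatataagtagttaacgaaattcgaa
The Rim101 match of SMP1 began 286 bases before the start and that of DAN1 213 bases before it. PHO5 had Rim101 matches at 264 and 164 bases and a Pho4 match at 253 bases, while PHO11 had a Rim101 match at 138 and a Pho4 match at 283 bases. TIR2 had neither in its 300 bases, and neither did PHO89 or RIM8.

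The strongest rise by test was that of TIR2 (chrXV:346195-346950), which encodes a serine- and alanine-rich cell wall mannoprotein of the cold- and anaerobiosis-induced TIP1 family. It stood at 67.4, 49.7 and 59.7 CPM in the wild type and at 629.6, 667 and 666 CPM in rim101-531. The 3 mutant libraries differed by little and were all about an order of magnitude above the wild type, 11.1-fold higher by the fit (log2 fold change 3.47 ± 0.17, adjusted p = 1.16e-10). Against the mean of the 5 other mutants on the log2 scale TIR2 was also higher, by 1.13 ± 0.11 (adjusted p = 7.07e-07). Among those, dig1 was lowest with a mean of 73.2 CPM, ste12, ras2 and spt8 had 156, 195 and 207 CPM, and rtg3, with 5199 CPM, was far above rim101-531.

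Other hypoxic mannoprotein genes rose with it, by smaller factors. Of 17 listed hypoxic and cell wall genes 16 could be tested, and 6 were higher and 1 lower. The share over all tested features was 1.28% higher and 1.8% lower. The list's median log2 fold change was 0.74, or 0.49 without wild-type replicate 2. The 6 were TIR2, HES1, DAN1, TIR4, TIR3 and PAU23, the last also counted among the seripauperins. Among the members not called were ANB1, HEM13, ROX1, CYC7, COX5B, OLE1 and AAC3. TIR4 stood at 575, 310.5 and 526 CPM in the wild type and at 890.0, 1330 and 1130 CPM in rim101-531 (log2 fold change 1.25 ± 0.21, adjusted p = 0.00180). DAN1, an anaerobically expressed mannoprotein gene, went from 971, 680 and 881 CPM to 1358, 1876 and 1645 CPM (0.95 ± 0.15, adjusted p = 0.00145). In both genes the lowest wild-type library was replicate 2 and the highest mutant library was also replicate 2, and the groups did not overlap. TIR3 gave 1.10 ± 0.19 (adjusted p = 0.00262). TIR1 did not pass, with 1193, 480.5 and 895 CPM against 1237, 1802 and 1561 CPM (adjusted p = 0.0736). TIP1, the gene that names the family, fell, from 3604, 4811 and 4132 CPM to 2960, 2385 and 2692 CPM (-0.64 ± 0.15, adjusted p = 0.0182), a call lost without wild-type replicate 2 or 3 or rim101-531 replicate 2 or 3.

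Seripauperins are small proteins related to the TIR family and made from many near-identical subtelomeric genes. Of 24 such genes 5 passed the filter on low counts, and the remaining 19 had at most 7 counts in any of the 6 libraries. PAU17 stood at 8.39, 10.4 and 9.07 CPM in the wild type and at 18.2, 23.3 and 22.5 CPM in rim101-531 (log2 fold change 1.20 ± 0.18, adjusted p = 0.000955). PAU5 went from 72.0, 47.5 and 67.4 CPM to 111, 149 and 141 CPM (1.10 ± 0.17, adjusted p = 0.00103). Both held in every alternative. PAU13, PAU23 and PAU2 were called too, but without wild-type replicate 2 or 3 or rim101-531 replicate 1 only PAU17 and PAU5 of the 5 tested genes remained. The count tables set records that did not align uniquely apart from the genes, so reads that fit several of these copies were left out. A low count of a PAU gene therefore need not mean low expression, and the split among PAU genes is uncertain.

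The list of sterol uptake genes overlaps the hypoxic list in HES1 and DAN1, which were counted in both. In the sterol uptake list 5 of 10 genes were higher and 0 lower, against 1.28% higher and 1.8% lower over all tested features. The 5 were HES1, YSR3, DAN1, PDR11 and AUS1, and the list's median log2 fold change was 0.49. HES1, which encodes an oxysterol-binding protein, stood at 43.6, 19.8 and 36.0 CPM in the wild type and at 67.3, 115 and 96.0 CPM in rim101-531 (1.49 ± 0.23, adjusted p = 0.00103). PDR11, which encodes a sterol importer of the ABC family, went from 91.3, 94.0 and 92.8 CPM to 141, 145 and 141 CPM (0.62 ± 0.11, adjusted p = 0.00206). The PDR11 libraries of each group lay close together, and the 1.54-fold difference was larger than their spread. AUS1, the gene of the related importer, chosen after its values were seen, gave 0.63 ± 0.14 (adjusted p = 0.0137), and it lost its call without wild-type replicate 1 or 3 or rim101-531 replicate 2. YSR3, a sphingoid base phosphate phosphatase gene, rose by 0.93 ± 0.15 on the log2 scale (adjusted p = 0.00113). UPC2 and ECM22, the transcription factor genes for sterol uptake and synthesis, did not pass (adjusted p = 0.753 and 0.240).

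In ergosterol synthesis 6 of 25 genes were higher and 0 lower, against 1.28% and 1.8% of all tested features. A positive log2 fold change was found in 24, and in 2748 of all 5786 features. The list's median was 0.37. HMG1, the gene of the major HMG-CoA reductase isozyme, stood at 248, 251 and 264 CPM in the wild type and at 334, 415 and 374 CPM in rim101-531 (0.56 ± 0.09, adjusted p = 0.00103). ERG11, the lanosterol demethylase gene, went from 1042, 1140 and 1112 CPM to 1386, 2125 and 1778 CPM (0.68 ± 0.16, adjusted p = 0.0228). Both were separated from the wild type in every library, but the count of 6 fell to 1 without wild-type replicate 2 or 3 or rim101-531 replicate 2 or 3, to 4 without wild-type replicate 1, and to 0 with the 6 libraries alone. The medians stayed positive under these settings.

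**Figure D3:**
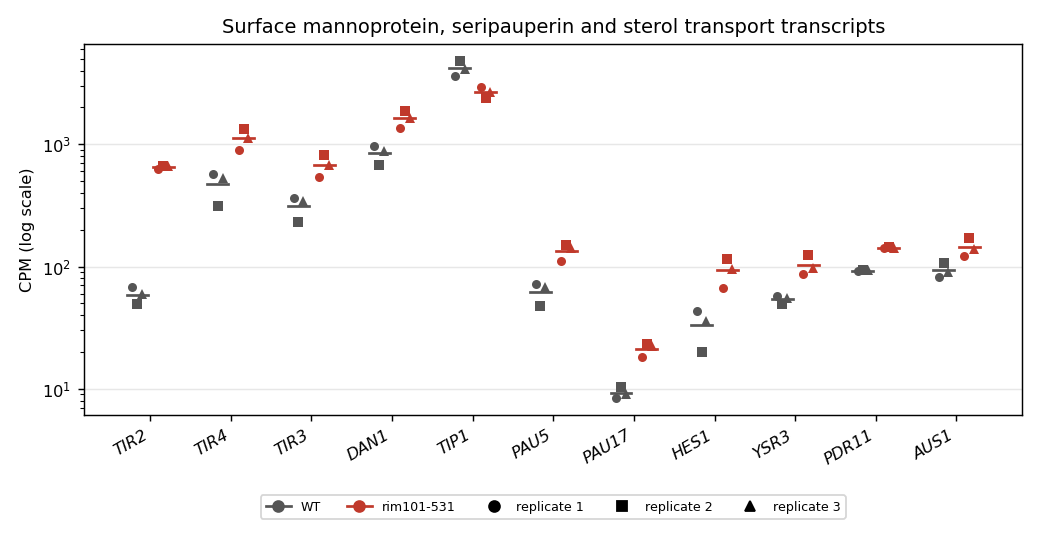
CPM on a log scale of cell wall mannoprotein, seripauperin and sterol transport transcripts in the 3 wild-type (grey) and 3 rim101-531 (red) libraries, with bars for the means and marker shapes for replicate numbers. Each gene shown except TIP1 has all red markers above all grey markers, and TIR2 has the widest gap.

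Phosphate genes gave the other large set of rises. These genes, switched on by Pho4 when phosphate is scarce, encode transporters, secreted phosphatases and the polyphosphate polymerase complex. Of 18 listed, 17 were tested, and 8 were higher and 0 lower, against 1.28% and 1.8% of all tested features. The phosphate list's median log2 fold change was 0.64. PHO89 (chrII:796798-798522), the sodium-coupled phosphate transporter that works at alkaline pH, stood at 8.07, 8.13 and 7.33 CPM in the wild type and at 113, 92.5 and 99.97 CPM in rim101-531. The 3 wild-type libraries had 21 to 25 counts each and the mutant libraries 274 to 280, a 12.9-fold rise (log2 fold change 3.69 ± 0.40, adjusted p = 5.53e-05). PHO84, the high-affinity proton-coupled transporter gene, went from 1300, 1012 and 1223 CPM to 2276, 2520 and 2330 CPM (1.01 ± 0.13, adjusted p = 0.000170).

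GIT1, which encodes a permease for glycerophosphoinositol, stood at 44.5, 25.4 and 31.4 CPM in the wild type and at 122, 84.7 and 103 CPM in rim101-531 (1.60 ± 0.19, adjusted p = 0.000102). SPL2, which encodes a regulator of low-affinity phosphate uptake, went from 4.84, 6.83 and 3.49 CPM to 28.8, 15.9 and 25.7 CPM (2.19 ± 0.43, adjusted p = 0.00661). Its promoter held 3 Pho4 matches, at 147, 90 and 31 bases before the start, and 7 of the 17 tested phosphate genes held at least 1 (41.2%, against 3.57% of all promoters). The secreted acid phosphatase gene PHO5 stood at 34.5, 33.2 and 30.0 CPM and at 92.4, 53.7 and 66.1 CPM (1.11 ± 0.18, adjusted p = 0.00152). Mutant replicate 2 was the lowest of the 3 in PHO5, SPL2 and GIT1, yet above every wild-type library. PHO11 and PHO12, near-identical phosphatase genes whose shared reads were left out, rose by 1.92 ± 0.35 and 1.52 ± 0.36 (adjusted p = 0.00351 and 0.0228). The split between them is uncertain, and the PHO12 call was lost without wild-type replicate 2 or rim101-531 replicate 1. VTC3, a subunit gene of the polyphosphate polymerase, chosen after its values were seen, rose by 0.64 ± 0.12 (adjusted p = 0.00401). The regulators PHO4 and PHO81 did not pass, at -0.07 ± 0.15 and 0.23 ± 0.12.

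The phosphate genes were spread widely over the other mutants. PHO89 had means of 243, 252 and 116 CPM in ste12, dig1 and spt8, of 28.6 CPM in ras2 and of 2.22 CPM in rtg3. The rim101-531 mean of 102 CPM was thus above the wild type, ras2 and rtg3 and below ste12, dig1 and spt8. It passed as higher against the mean of all 5 on the log2 scale (0.91 ± 0.25, adjusted p = 0.0348). That mean includes rtg3 at 2.22 CPM, and no comparison without rtg3 was made. ENA1 also had its higher means in ste12, dig1 and spt8, at 75.7, 63.5 and 100.1 CPM. Its means were 37.0 CPM in ras2 and 6.75 CPM in rtg3, the same low places as for PHO89. The highest of these mutants was spt8 for ENA1 and dig1 for PHO89.

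**Figure D4:**
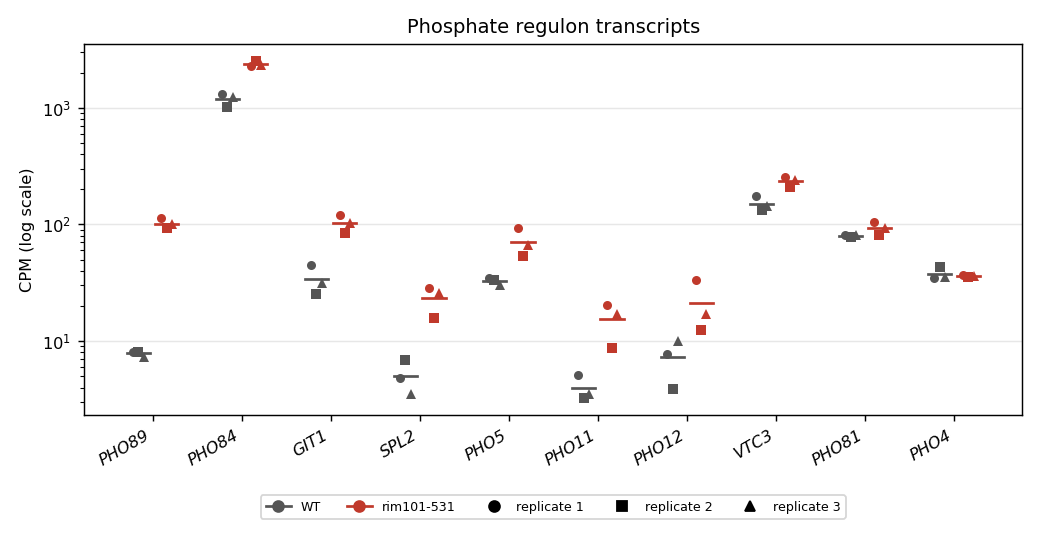
CPM on a log scale of phosphate regulon transcripts in the 3 wild-type (grey) and 3 rim101-531 (red) libraries, with bars for the means and marker shapes for replicate numbers. PHO89, PHO84, GIT1, SPL2, PHO5, PHO11, PHO12 and VTC3 are higher in every rim101-531 library, while the regulator gene PHO4 overlaps.

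Some iron uptake genes were lower in rim101-531, against wild-type libraries that differed widely from each other. Of 28 tested genes 4 were lower and 0 higher, against 1.8% and 1.28% of all tested features. A negative log2 fold change was found in 26, and in 3038 of all 5786 features. The list's median was -0.41, or -0.14 without wild-type replicate 2. FRE2, a plasma membrane ferric reductase gene, stood at 30.7, 219 and 98.4 CPM in the wild type and at 30.0, 20.6 and 25.7 CPM in rim101-531 (-2.19 ± 0.43, adjusted p = 0.00661). FIT3, which encodes a cell wall mannoprotein that retains siderophore-bound iron, stood at 974, 4316 and 2158 CPM and at 767, 803 and 768 CPM (-1.67 ± 0.40, adjusted p = 0.0248). Wild-type replicate 1 was close to the mutant libraries in both, wild-type replicate 2 was highest, and the groups did not overlap. FIT3, whose call was lost in 6 of the 11 alternatives, has a promoter with the Aft1 site, as have 14 of the 28 tested genes.

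The siderophore transporter gene ARN2 gave 171, 682 and 339 CPM against 169, 167 and 150 CPM (-1.30 ± 0.33, adjusted p = 0.0372), and FRE3, another reductase gene, 32.3, 329 and 152 CPM against 32.8, 31.4 and 29.6 CPM (-2.45 ± 0.48, adjusted p = 0.00661), with overlap. The summed CPM of the 28 genes was 5452, 16110 and 9267 in the wild type and 5828, 5899 and 5869 in rim101-531. The mutant sums lay between wild-type replicates 1 and 3. Without wild-type replicate 2 the count called was 1 of 28, without wild-type replicate 3 or any single rim101-531 replicate it was 2, without wild-type replicate 1 it was 10, and with the 6 libraries alone it was 0. Against the 5 other mutants none of the 28 was called. The part of the wild-type libraries' own spread in this result was not tested.

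**Figure D5:**
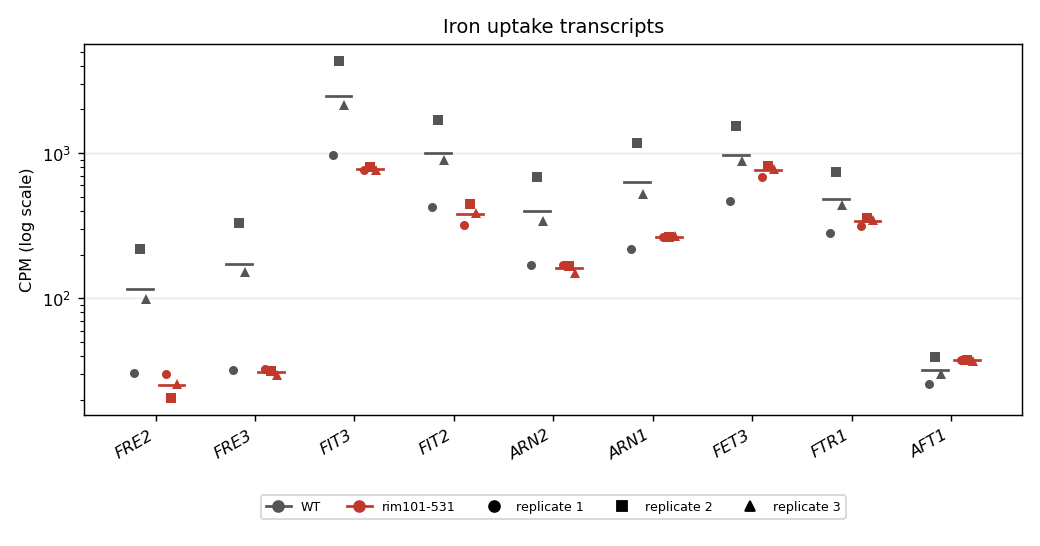
CPM on a log scale of iron uptake transcripts and the regulator gene AFT1 in the 3 wild-type (grey) and 3 rim101-531 (red) libraries, with bars for the means and marker shapes for replicate numbers. The red markers lie close together, while the grey markers spread, with replicate 2 highest and replicate 1 at or near the red level.

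FLO11, the flocculin gene on which Sigma1278B mats and invasion depend, did not pass. It stood at 14510, 18290 and 16620 CPM in the wild type and at 12310, 13070 and 12560 CPM in rim101-531. All 3 mutant libraries lay below the wild type, as was so for 12.7% of tested features, and the log2 fold change was -0.38 ± 0.14 (adjusted p = 0.145). None of the 10 tested flocculin and adhesin genes was called by edgeR's quasi-likelihood test, by DESeq2 or in any other alternative. The unadjusted p was 0.0115 for FLO11 and its adjusted p over the alternatives ran from 0.0662 to 0.414. Against the mean of the 5 other mutants FLO11 was higher by 1.66 ± 0.09 (adjusted p = 6.60e-10). Its means were 3295 CPM in ste12, 1928 CPM in spt8, 6829 CPM in ras2 and 695.7 CPM in rtg3, and 34270 CPM in dig1.

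PGU1, the secreted endopolygalacturonase gene that is a classical target of the filamentation MAPK pathway, fell. It stood at 92.9, 107 and 105 CPM in the wild type and at 62.4, 45.6 and 45.7 CPM in rim101-531 (-0.99 ± 0.15, adjusted p = 0.00109), without overlap. Of 12 tested MAPK targets it alone was called, and 0 of 15 components of the filamentation MAPK pathway were called, their log2 fold changes running from -0.26 to 0.17. TEC1 gave -0.13 ± 0.13, KSS1 0.14 ± 0.12 and STE12 -0.08 ± 0.15. Among 17 transcription factor genes of filamentous growth, HMS2 rose by 0.58 ± 0.11 (adjusted p = 0.00442) and HMS1 had -0.57 ± 0.15 (adjusted p = 0.0447); the HMS1 call was lost in 8 of the 11 alternatives, and that of HMS2 with the 6 libraries alone. MEP2, the ammonium permease gene that is needed for filamentation on low nitrogen, fell from 208, 159 and 180.1 CPM to 92.0, 91.4 and 79.98 CPM (-1.05 ± 0.16, adjusted p = 0.000981).

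In central metabolism CIT2, the peroxisomal citrate synthase gene of the retrograde pathway, rose. It stood at 1073, 842 and 1002 CPM in the wild type and at 1887, 1559 and 1766 CPM in rim101-531 (0.84 ± 0.10, adjusted p = 0.000127), and of 11 retrograde genes it alone was called. BAT2, the cytosolic branched-chain aminotransferase gene, rose by 0.63 ± 0.11 (adjusted p = 0.00293). YAT2, a carnitine acetyltransferase gene, rose by 0.51 ± 0.09 (adjusted p = 0.00401) and CRC1, the mitochondrial carnitine carrier gene, by 0.43 ± 0.09 (adjusted p = 0.0142). Neither YAT2 nor BAT2 passed with the 6 libraries alone, and CRC1 was also lost without wild-type replicate 2 or rim101-531 replicate 2. No gene was called among 10 of the galactose pathway and 25 of glycolysis; no alternative called any there either.

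Mitochondrial ribosomal protein genes were lower in some cases, and no cytosolic one was called. Of 69 tested mitochondrial ribosomal protein genes 7 were lower and 0 higher, against 1.8% and 1.28% of all tested features. All 69 log2 fold changes were negative (median -0.34), against 3038 of all 5786. The genes were read in the same libraries, so their signs do not count as separate evidence. The summed CPM of the list was 5255, 6575 and 5791 in the wild type and 5331, 4116 and 4769 in rim101-531, so that mutant replicate 1 overlapped the wild type. The count of 7 became 1 without wild-type replicate 2 or 3 or rim101-531 replicate 3, and 0 without rim101-531 replicate 2. Of 136 tested cytosolic ribosomal protein genes 131 had a positive log2 fold change (median 0.35), against 2748 of all 5786 features. Of the 136, 0 were called by edgeR's quasi-likelihood test and 1 by DESeq2. Their summed CPM was 109500, 113400 and 111500 in the wild type and 120400, 166200 and 147400 in rim101-531, without overlap. The mitochondrial median was -0.22 without wild-type replicate 2 and -0.24 without rim101-531 replicate 2, and the cytosolic median ran from 0.25 to 0.48 over the alternatives. Among 39 respiratory chain and ATP synthase genes the median was -0.22. Lower were 4 of them (ATP19, COX7, COX9 and COX13), against 1.8% of all tested features. Without rim101-531 replicate 2 none of them passed and the median was -0.12. Their summed CPM was 22820, 24120 and 23220 in the wild type and 24070, 18510 and 21360 in rim101-531, so that mutant replicate 1 lay within the wild-type range.

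Among the genes that fell, several single genes held in every alternative. AAD10, a putative aryl-alcohol dehydrogenase gene, stood at 79.1, 126 and 108 CPM in the wild type and at 41.7, 42.9 and 37.9 CPM in rim101-531 (-1.35 ± 0.15, adjusted p = 6.14e-05). PAI3, which encodes the cytoplasmic inhibitor of vacuolar proteinase A, went from 33.9, 53.6 and 45.4 CPM to 19.5, 13.2 and 13.9 CPM (-1.52 ± 0.22, adjusted p = 0.000652). YDL218W stood at 28.1, 82.6 and 48.9 CPM and at 10.5, 12.5 and 11.8 CPM (-2.19 ± 0.27, adjusted p = 0.000135). In each of these wild-type replicate 1 was the lowest of the 3, and the mutant libraries were below it. UGA4, the permease gene for gamma-aminobutyric acid, fell by 1.06 ± 0.17 (adjusted p = 0.00116), GLG2, a glycogenin gene, by 0.88 ± 0.15 (adjusted p = 0.00206), and URA10, the minor orotate phosphoribosyltransferase gene, by 0.86 ± 0.14 (adjusted p = 0.00133), each on the log2 scale.

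Some stress genes were lower. Of 32 tested targets of Msn2 and Msn4 4 were lower and 0 higher, while 1.8% of all tested features were lower and 1.28% higher. Their median was -0.08, and it was 0.05 without wild-type replicate 1, 0.04 without rim101-531 replicate 2 and -0.28 without wild-type replicate 2. The hydrophilin gene SIP18 stood at 689, 1449 and 969 CPM in the wild type and at 394, 477 and 479 CPM in rim101-531 (-1.20 ± 0.20, adjusted p = 0.00196), and GRE1, another hydrophilin gene, at 674, 1290 and 884 CPM and at 437, 506 and 483 CPM (-0.997 ± 0.19, adjusted p = 0.00477). Wild-type replicate 2 was again the highest, the groups did not overlap, and both calls were lost with the 6 libraries alone. Of 29 tested heat shock and chaperone genes 3 were lower and 0 higher, a count that was 0 without rim101-531 replicate 3. Rises outside the lists included CSS1, from 14.2, 13.98 and 14.3 CPM to 59.6, 64.8 and 77.5 CPM (2.25 ± 0.27, adjusted p = 0.000110). The phospholipase B gene PLB2 rose by 0.58 ± 0.09 (adjusted p = 0.000965).

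Genes of mating type and mating did not pass. The a-specific receptor gene STE2 stood at 279, 233 and 273 CPM in the wild type and at 192, 198 and 204 CPM in rim101-531 (adjusted p = 0.0922), while MFA2 had 0 counts and MFA1 0 to 3 in each of the 6 libraries. The alpha-specific STE3 stood at 31.6, 30.6 and 31.4 CPM and at 22.7, 29.4 and 32.5 CPM. None of the 5 a-specific, 3 alpha-specific and 10 haploid-specific genes tested was called by edgeR's quasi-likelihood test; DESeq2 called 2 a-specific genes lower.

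Against the mean of the 5 other mutants on the log2 scale, which does not use the wild-type libraries as a reference, rim101-531 differed in 331 features (5.72%), 232 of them higher (4.01%) and 99 lower (1.71%). The same rim101-531 libraries enter both comparisons, so values are given side by side. Phosphate genes were higher in 7 of 17 cases, and relative to the wild type in 8. MAPK targets were higher in 7 of 12, but relative to the wild type 0 were higher and 1 lower. Respiratory chain and ATP synthase genes were higher in 16 of 39, but relative to the wild type 0 were higher and 4 lower. Gluconeogenesis, glyoxylate and fatty acid oxidation genes were higher in 17 of 26, against 2 higher and 1 lower relative to the wild type. CIT2 was higher by 1.498 and BAT2 by 1.19 (adjusted p = 3.60e-09 for BAT2), while the CIT2 mean was 60.7 CPM in rtg3, its lowest among the strains. Several genes that were higher than in the wild type did not pass here: TIR4 (-0.05), HES1 (-0.43), PAU5 (-0.36), GIT1 (0.10) and SMP1 (0.15). AAD10 (-0.70), PAI3 (-1.04) and MEP2 (-0.47) were lower in both comparisons, and PGU1, lower than in the wild type, was higher than in the other mutants by 0.48 (adjusted p = 0.0291). The number called was 225 without rim101-531 replicate 1, 207 without replicate 2 and 147 without replicate 3.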

How the data were processed

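Polyadenylated RNA of 24 h biofilms was sequenced from TruSeq libraries, per the labels' protocols. The submitters' processing notes list bcl2fastq, TopHat2 2.0.19, the counter HTSeq 0.6.1 and build R64, with no settings. The authors deposited whole-number read counts for 7126 features, 1 table per library, not normalized; 6048 features were found by locus tag in RefSeq's R64 table, which gave symbols and coordinates. The annotation version, the strand setting and the rule for reads over overlapping genes are stated in no source used here, so overlapping genes are uncertain. The tables set records that did not align uniquely apart from the features. These were on average 21.2% of records in the wild type and 21.8% in rim101-531. Counts of near-identical copies thus lack shared reads and are uncertain too. Records without a gene were left out, and they made up 42.6% ± 0.332 (SD, n = 3) of the alignment records in the wild type and 42.7% ± 0.265 in rim101-531.

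Counts of all 21 libraries were fitted together in edgeR 4.0.16 (R 4.3.3, limma 3.58.1) with filterByExpr by group, TMM factors of 0.893 to 1.16 and a mean per group, which left 14 residual degrees of freedom, and tested with the quasi-likelihood test. The tests were two-sided, with Benjamini-Hochberg adjustment over 5786 features and a threshold of 0.05. Within both groups replicates differed beyond sampling noise (chi-square over its degrees of freedom, 3.99 to 19.8). The procedure was tested on simulated data. Alternatives were DESeq2 1.42.0 (Wald test), its size factors within edgeR, all counted features without the filter, a block for the replicate number, the 6 libraries alone and leaving out each library; leaving out 1 replicate number from both groups was added after the data were seen.

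The named genes were RIM101, FLO11 and PGU1, the 12 largest rises and 12 largest falls among calls without overlap and with at least 20 counts on average in the higher group, up to 4 called members by smallest p of each of 49 gene lists, and any tested member of the lists on the Rim101 pathway, its repressed genes, its alkaline response genes and the flocculins; other genes were chosen after their values were seen. The members and lists were chosen with earlier results of these data known. Lists are described by counts and medians, without a test. Promoters were read from the R64 sequence with Python 3.11.15.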

Additional observations from a re-analysis of the deposited data

How the results depend on the processing

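The count of 178 changed features was 264 with DESeq2's Wald test, 169 with DESeq2's size factors and 161 without a filter on low counts. It was 61 with the 6 libraries alone, of which 55 were among the 178. Leaving out a library of 1 group gave 76 to 176, and leaving out the same replicate number from both groups, an alternative added after the data were seen, gave 146, 47 and 34 for numbers 1, 2 and 3. With the replicate number as a block it was 269, all 178 among them. Whether the numbers pair the samples was not tested. Over 5786 features the deviations of same-numbered libraries correlated at 0.218, 0.207 and -0.0269 for numbers 1, 2 and 3. Wild-type replicate 1 with rim101-531 replicate 2 gave -0.213, and wild-type replicate 2 with rim101-531 replicate 1 gave -0.221. Wild-type replicates 1 and 2, but not 3, correlated best with their own number. Against the 5 other mutants the count of 331 was 425 with DESeq2, 329 with its size factors, 307 without a filter, 558 with the replicate block and 147 to 225 without a rim101-531 library. The cause of these differences was not tested. No called gene named by the rule changed direction under the alternatives tried. Of 113 genes the rule named, 79 were called and 27 held under all 11 alternatives. The median log2 fold change of all features stayed within 0.1 of 0 under every setting, the lowest being -0.014 and the highest 0.0198. At 2551873 to 3211933 counts per library, genes with few counts had little power.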

Other observations

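Some called features were neighbours on a chromosome, a pattern chosen after the values were seen and not tested. Among tested features in chromosome order, which skips untested ones, 16 pairs had both members called, involving 30 of the 178 features, and 13 of the pairs moved in the same direction. TIR4, TIR2 and AUS1 follow each other on chromosome XV, where TIR2 lies at 346195 to 346950, and all 3 were higher. PDR11 and TIR3, on chromosome IX, start apart from each other on opposite strands, and both were higher. HMS2 and BAT2 are adjacent on chromosome X and were higher, ENA5 and ENA1 on chromosome IV, with the untested ENA2 between them, were higher, and PAI3 and SIP18 on chromosome XIII were lower. ARN2 and PAU13 on chromosome VIII, HUG1 and SML1 on chromosome XIII, and MRPL17 and NRD1 on chromosome XIV moved in opposite directions. In overlapping neighbours the reads of one gene can count for the other. Reads shared by near-identical neighbours such as ENA5 and ENA1 were left out, so their levels are uncertain.

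Autophagy genes were not among the lists, and their values were seen before they were counted. Of 37 tested features with an ATG symbol 6 were lower and 0 higher, against 1.8% lower over all tested features. A negative log2 fold change was found in 24 of the 37, and in 3038 of all 5786. The ATG median was -0.0665, near the median of -0.0135 over all tested features. ATG33, a mitophagy gene, stood at 326, 410 and 337 CPM in the wild type and at 228, 175 and 202 CPM in rim101-531 (-0.83 ± 0.15, adjusted p = 0.00277), which held in every alternative. ATG8, which encodes the ubiquitin-like protein of autophagosome membranes, stood at 66.5, 71.9 and 70.8 CPM and at 47.4, 50.6 and 43.6 CPM (-0.56 ± 0.12, adjusted p = 0.0136), a call made in 7 of the 11 alternatives.

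Other single genes that held in every alternative, and that were chosen after their values were seen, were GPG1, which fell by 0.96 ± 0.13 on the log2 scale, GTT1, a glutathione transferase gene, which fell by 0.81 ± 0.14, RIB4, the lumazine synthase gene, which fell by 0.69 ± 0.14, the flavohemoglobin gene YHB1, higher by 0.52 ± 0.10, and the recombination gene RAD52, higher by 0.65 ± 0.10. GTT1 was also lower than the mean of the other mutants (-1.30), while RIB4 was higher than that mean (0.96).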
